A study of Mus musculus with 25 samples.

Results

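The comparison described here set IL-7 receptor positive type 1 innate lymphoid cells of the adult mouse liver (AL 7R+ ILC1s) against natural killer cells of the same organ (AL NK cells). Its members were chosen by label, 3 libraries of AL 7R+ ILC1s and 2 of AL NK cells, which are 5 of the 25 RNA-seq libraries of the series. The series profiled group 1 innate lymphoid cells (G1-ILCs) and NK cells from fetal and adult liver, bone marrow (BM), small intestine and salivary gland. Every mouse of the 2 groups was wild type C57BL/6 and 8 weeks old, with no treatment in the labels. Both populations were sorted by flow cytometry as CD3- NK1.1+ NKp46+ cells. As the study defines them, AL 7R+ ILC1s were then CD49a+ CD49b low and IL-7R+, and AL NK cells CD49a- CD49b+ with no IL-7R gate named. The labels give 2000 sorted cells per library, and the study's methods give another number. The study calls its replicates biological, but whether each library came from its own mouse is not stated, so the p-values measure the spread between libraries. Each library is a sorted population in bulk, in which more cells that express a gene and more RNA per cell cannot be told apart. The comparison asks how far the IL-7R+ subset of liver ILC1s differs from conventional NK cells that share its organ and its surface receptors NK1.1 and NKp46.

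ILC1s and NK cells both depend on the transcription factor T-bet and both release interferon-gamma. NK cells also use Eomes, circulate through blood and kill target cells with perforin and granzymes, whereas ILC1s stay in their tissue, held there by adhesion receptors such as CD49a and by the absence of exit receptors for sphingosine-1-phosphate. In the liver, ILC1s carry CXCR6, a receptor for a chemokine presented by the cells that line the sinusoids, and the death ligand TRAIL.

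The 3 libraries of AL 7R+ ILC1s held 4503195, 4198346 and 7995906 counts, and the 2 of AL NK cells held 5328178 and 3973227, within the 2302643 to 7995906 of the whole series. Levels are CPM, the counts of a gene scaled by TMM to a common library total, and are listed in the order of the replicate numbers. A fold change is the fitted log2 ratio of AL 7R+ ILC1s over AL NK cells with its standard error (SE). Calls rest on edgeR's quasi-likelihood test, Benjamini-Hochberg adjusted over the 13424 genes past the count filter, at a threshold of 0.05. The fit held 18 samples of 6 groups from liver and bone marrow, so the pair of AL NK libraries borrowed its spread from the other groups.

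The genes behind the sort gate followed the labels, and since the gate chose the cells on these proteins they are a check and not a result. *Il7r*, the alpha chain of the IL-7 receptor, was at 518, 591 and 619 CPM in AL 7R+ ILC1s and at 28.1 and 18.6 CPM in AL NK cells. *Itga1*, which encodes CD49a, was at 413, 490.4 and 331 CPM and 6.46 and 0.508 CPM. *Itga2*, which encodes CD49b, was at 18.48, 31.9 and 19 CPM and 129.6 and 127 CPM. All 3 genes were apart between the groups, in the direction of the gate. *Klrb1c*, which encodes NK1.1, stood at 2094, 2084 and 2029 CPM against 2423 and 2152 CPM, and *Ncr1*, which encodes NKp46, at 2023, 2106 and 2101 CPM against 1728 and 1723 CPM. These shared receptors were high in all 5 libraries. *Cd3e*, the chain that the CD3 antibody binds, was at 0.44, 0 and 0.123 CPM in AL 7R+ ILC1s and had no count in AL NK cells. Of the other markers set for the labels, *Cxcr6*, *Zfp683*, *Tnfsf10* and *Cd200r1* were high only in the ILC1 libraries of this pair of groups, *Eomes*, *Klra4*, *Klra8* and *S1pr5* only in the NK libraries, and *Tbx21*, which encodes T-bet, in all 5. Their values are given below with their families.

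Markers of other cells were summed per library. The 12 T cell markers summed to 1434, 1370 and 1411 CPM in AL 7R+ ILC1s and to 824 and 741 CPM in AL NK cells, most of it from the receptor constant genes *Trbc1* and *Trbc2*. *Cd5*, *Cd6* and *Cd8a* stayed under 1 CPM in every library. *Cd4* was at 5.94, 8.21 and 5.51 CPM in AL 7R+ ILC1s against 0.38 and 0.254 CPM in AL NK cells. *Cd28* was at 91.1, 96.2 and 89.8 CPM against 90.8 and 81.1 CPM. The 11 B cell markers summed to 600 to 664 CPM against 216 to 241 CPM, nearly all of it *Ighm*, with *Ms4a1* under 1 CPM. The 16 myeloid markers were at 5.87 to 28.8 CPM against 6.86 to 9.5 CPM and the 10 neutrophil markers at 0.704 to 1.54 CPM against 0.19 to 0.254 CPM. The 11 hepatocyte markers were at 13.6 to 18.3 CPM against 2.66 to 3.05 CPM, most of it from the transferrin gene *Trf*, with *Alb* at no more than 0.858 CPM. The 11 endothelial and stromal markers were at 66.87 to 100.8 CPM against 143 to 159 CPM. *Fcgr2b* alone made up 89.9 and 73.7 CPM of the sums in the AL NK libraries. The 10 erythroid and platelet markers were at 0.66 to 3.52 CPM against 36.9 and 1.78 CPM. The 9 ILC2 markers were at 265 to 274 CPM against 467 and 445 CPM, made up mostly of *Gata3* and *Klrg1*. The 9 ILC3 markers were at 35.2 to 41.5 CPM against 5.7 and 1.78 CPM, made up in AL 7R+ ILC1s mostly of *Ltb4r1*, while *Il22* and *Il17a* had at most 1 count in a library. The part of any of these cells in the results below was not tested.

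Between the groups, 2476 of 13424 genes were called, or 18.4%. The libraries of the groups did not overlap for 42.7% of the genes tested, called or not. Of the 2476 genes called, 2455 did not overlap, so a lack of overlap given below for a called gene adds little to its call. AL 7R+ ILC1s were higher for 1308 of the genes called, which is 9.74% of the genes tested, and lower for 1168, which is 8.7%. These shares are the background for the counts of every gene list below. The median log2 fold change of all genes tested was 0.01. The counts leaned on the few NK libraries, with 1644 genes called without AL NK replicate 1 and 1798 without AL NK replicate 2, and 1543 and 1648 of these were among the 2476. With a further limit of a 2-fold change, 1319 genes were called. In simulated data of the same size, 47 of 64 genes changed 4-fold were recovered, 30 of 70 changed 2-fold and 10 of 66 changed 1.5-fold. Only 89 genes were called in that simulation against 2476 here, so the adjusted threshold was stricter there and these shares do not carry over. Small changes may still have been missed here.

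**Figure D1:**
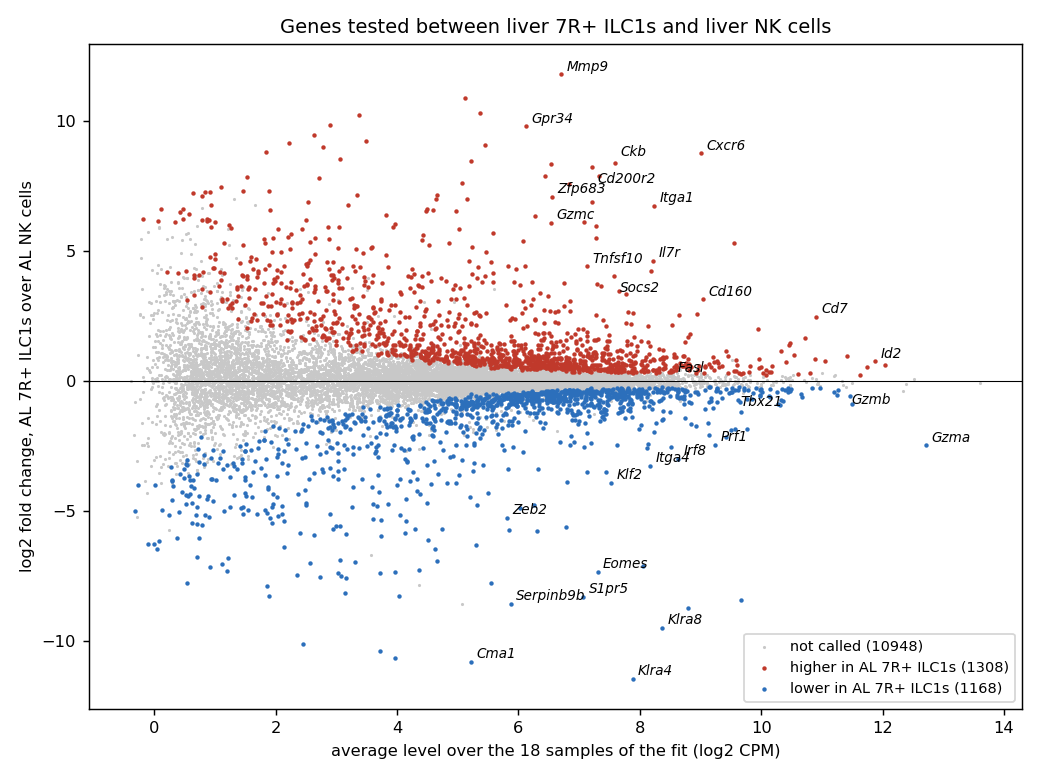
The fitted log2 fold change of AL 7R+ ILC1s over AL NK cells is plotted for each of the 13424 genes tested against its average level over the 18 samples of the fit (log2 CPM), with genes called higher in red, genes called lower in blue and genes not called in grey. The tissue residence gene *Cxcr6* and the NK cell genes *Klra4* and *Klra8* lie far from 0 at opposite ends, while *Tbx21*, *Fasl* and *Gzmb* lie near the line of no difference.

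Among the genes at 50 CPM or more in the higher group, the largest changes toward AL 7R+ ILC1s included a protease, receptors for lipid and protein ligands and enzymes of energy and membrane biology. *Cxcr6* (ENSMUSG00000048521, chr9:123806475-123811760 of mm10, plus strand) was at 1024, 923 and 892 CPM in AL 7R+ ILC1s and at 1.14 and 3.56 CPM in AL NK cells, a log2 fold change of 8.74 ± 0.27 (SE; adjusted p = 8.66e-16). *Mmp9*, the secreted protease gelatinase B, was at 539, 467 and 409 CPM in the ILC1 libraries and had 1 count over both NK libraries. The ratio of its levels was 4216 (95% interval 756 to 166535), an interval that covers counting error only. Each ILC1 library thus carried a transcript at high level that the NK libraries all but lacked. *Gpr34*, a receptor for lysophosphatidylserine, was at 112, 129 and 113 CPM, again with 1 count over the NK libraries and a ratio of 1075 (95% interval 193 to 42495). *Ckb*, the brain type creatine kinase that buffers ATP, was at 425, 409 and 377 CPM against 0.95 and 1.52 CPM (log2 fold change 8.37 ± 0.29 SE, adjusted p = 7.51e-16). *Asb2*, a substrate adaptor of a ubiquitin ligase, was at 479, 369 and 392.1 CPM against 1.9 and 1.52 CPM (log2 fold change 7.87 ± 0.30 SE, adjusted p = 1.57e-15). None of these genes overlapped between the groups, which the rule that named them required. *Atp8a2*, a flippase of membrane phospholipids, reached 201, 174 and 179 CPM in AL 7R+ ILC1s and 0.19 and 1.02 CPM in AL NK cells. *Adam19*, a membrane metalloprotease, reached 109, 166 and 124 CPM and 0.57 and 0.508 CPM. *Gcnt2*, a branching glycosyltransferase, was at 75, 72.5 and 57 CPM with 3 counts over the NK libraries. The remaining genes of this rank were *Tmem273*, at 87.1, 61.9 and 63.3 CPM with 1 count over the NK libraries, *Tcrg-C1*, *Cd200r1* and *Cd200r2*, which are described with their families. *Cxcr6* lies inside the annotated span of *Fyco1* on the other strand, and whether the counting used strand is not stated.

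The largest changes toward AL NK cells were in receptors of the Ly49 family, in exit receptors and in serine protease biology. *Klra4* (ENSMUSG00000079852, chr6:130043731-130067271, minus strand), which encodes the activating receptor Ly49D, was at 0.22, 0.469 and 0.245 CPM in AL 7R+ ILC1s and at 900.2 and 902 CPM in AL NK cells, a log2 fold change of -11.46 ± 0.31 (SE; adjusted p = 1.43e-17). *Cma1*, a chymase best known from mast cells, had 2 counts over the ILC1 libraries and stood at 256 and 252 CPM in AL NK cells, with a ratio of NK to ILC1 levels of 2158 (95% interval 597 to 17827). *Serpinb9b*, a member of the family of serpins that block granzymes, was at 0.44, 0.704 and 0.735 CPM and 220.4 and 295 CPM, a log2 fold change of -8.59 ± 0.69 (SE; adjusted p = 2.91e-07). For these genes AL 7R+ ILC1s were at or near 0 in all 3 libraries. *Fcgr2b*, the inhibitory receptor for IgG, was at 0.44, 0 and 0.245 CPM against 89.9 and 73.7 CPM (log2 fold change -8.30 ± 0.59 SE, adjusted p = 1.3e-10). *Elovl7*, a fatty acid elongase, was at 0, 0.938 and 0.368 CPM against 78.1 and 59.5 CPM (log2 fold change -7.29 ± 0.51 SE, adjusted p = 9.88e-11). *Khdc1b*, a gene of the KH domain family, was at 0.44, 0.235 and 0.368 CPM against 77.5 and 50.8 CPM (log2 fold change -7.41 ± 0.55 SE, adjusted p = 2.49e-10). Other genes of this rank, *Klra8*, *Klra1*, *Klra13-ps*, *S1pr5* and *Eomes*, follow below.

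The signature genes of each cell type were mostly called in the direction of their name. Of 22 ILC1 signature genes tested, 19 were higher in AL 7R+ ILC1s, 1 was lower and 2 were not called, with a median log2 fold change of 5.62 against 0.01 over all genes. The gene that was lower was *Serpinb9b*. The 24 genes of the NK cell signature split into 22 that AL 7R+ ILC1s had at a lower level and 2 at a higher one, with a median of -4.80. The 2 that were higher were *Cd7* and *Klrb1b*. *Cd7*, an immunoglobulin family receptor, was at 2479.8, 2535 and 2241 CPM against 529.7 and 357 CPM (log2 fold change 2.45 ± 0.12 SE, adjusted p = 3.48e-13). *Klrb1b*, an inhibitory receptor of the NKR-P1 family, was at 804, 797 and 816 CPM against 251 and 218 CPM (log2 fold change 1.78 ± 0.13 SE, adjusted p = 1.69e-10). Several members of both lists were named by the study from these same libraries, so these counts are not independent evidence of a direction.

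**Figure D2:**
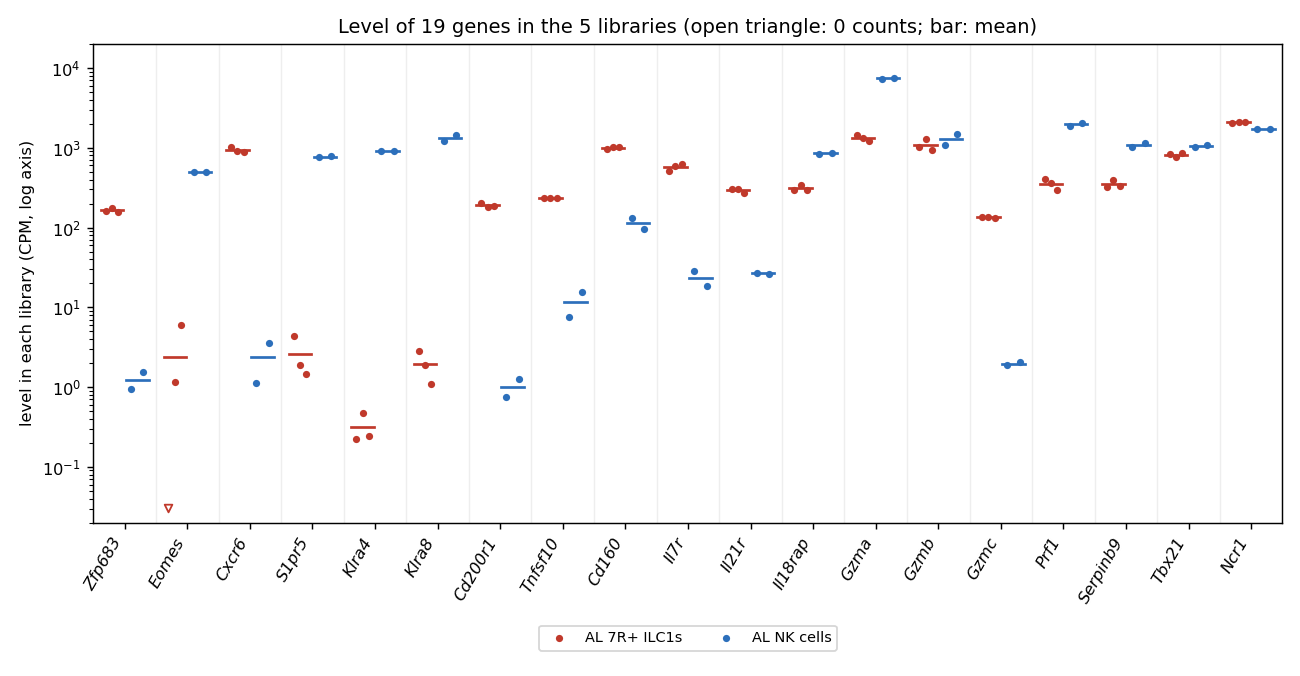
Levels of 19 genes (CPM, log axis) are plotted for each of the 3 AL 7R+ ILC1 libraries (red) and each of the 2 AL NK libraries (blue), with bars at the group means and open triangles for libraries with 0 counts. The groups are widely apart for *Zfp683*, *Eomes*, *Cxcr6*, *Klra4* and *Gzmc*, differ several-fold for *Gzma* and *Prf1*, overlap for *Gzmb* and are close together for *Tbx21* and *Ncr1*.

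The transcription factors divided about evenly, with 12 of 38 tested called higher in AL 7R+ ILC1s and 11 lower (median log2 fold change 0.07). *Eomes* (ENSMUSG00000032446, chr9:118478212-118486132, plus strand), the T-box factor of NK cells, was at 0, 1.17 and 6 CPM in AL 7R+ ILC1s and 502 and 495 CPM in AL NK cells, a log2 fold change of -7.35 ± 0.45 (SE; adjusted p = 1.79e-08). *Zfp683* (ENSMUSG00000049410, chr4:134053838-134058996, plus strand), which encodes Hobit, a factor needed for liver ILC1s, was at 160.2, 175 and 155 CPM and 0.95 and 1.52 CPM, a log2 fold change of 7.06 ± 0.26 (SE; adjusted p = 1.55e-15). Neither gene overlapped between the groups. By contrast *Tbx21*, shared by both lineages, was at 842, 756 and 849 CPM and 1010.0 and 1067 CPM, a log2 fold change of only -0.35 ± 0.09 (SE; adjusted p = 0.00745), which was not called without AL NK replicate 2 (adjusted p = 0.0836). Factors that were higher included *Ahr*, the aryl hydrocarbon receptor, at 136, 171 and 151 CPM against 11 and 10.7 CPM (log2 fold change 3.81 ± 0.23 SE, adjusted p = 9.58e-12). *Bcl11b*, a factor of T cells and ILC2s, was at 106, 117 and 86.5 CPM against 11.4 and 2.8 CPM (log2 fold change 3.78 ± 0.31 SE, adjusted p = 1.75e-09). *Ikzf2*, which encodes Helios, was at 83.2, 119.9 and 122 CPM against 13.5 and 18.3 CPM. *Id2*, the inhibitor of E proteins on which all ILCs depend, was high throughout, at 4766, 4647 and 4447 CPM against 2949.9 and 2584 CPM (log2 fold change 0.74 ± 0.07 SE, adjusted p = 3.54e-08). Among the factors that were lower, *Zeb2*, a zinc finger factor that NK cells need for terminal maturation, was at 4.84, 9.38 and 6.86 CPM against 255 and 289 CPM (log2 fold change -5.28 ± 0.34 SE, adjusted p = 1.43e-10). *Klf2*, which drives the exit receptor *S1pr1* in lymphocytes, was at 35.4, 40.8 and 43.7 CPM against 632 and 594 CPM (log2 fold change -3.93 ± 0.18 SE, adjusted p = 6.23e-14). *Myb*, a factor of progenitors, was at 0.44, 1.41 and 0 CPM against 32.1 and 27.7 CPM (log2 fold change -5.85 ± 0.60 SE, adjusted p = 7.39e-08). *Tcf7*, which encodes TCF-1, was at 74.2, 74.4 and 109 CPM against 186 and 114 CPM, and was lower (log2 fold change -0.80 ± 0.20 SE, adjusted p = 0.00489), but was not called without AL NK replicate 1 (-0.40, adjusted p = 0.317). *Gata3*, at 254, 265 and 255 CPM against 235 and 180.4 CPM, was not called (adjusted p = 0.0837), although it was without AL NK replicate 1 (0.52, adjusted p = 0.0214).

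Genes of helper ILCs were higher or not called. Of 19 tested, 11 were higher in AL 7R+ ILC1s and none was lower (median log2 fold change 1.43). By edgeR at an unadjusted p under 0.05, 1 was lower, as was 1 at the adjusted p without AL NK replicate 2, and DESeq2 called none lower. The study named *Il2ra*, *Icos*, *Kit* and *Rora* as high in AL 7R+ ILC1s from these same libraries. The count is thus not independent evidence of a direction. *Rora*, which encodes ROR-alpha, a factor of ILC2s and of ILC progenitors, was at 144, 105 and 151 CPM in AL 7R+ ILC1s and 31.4 and 21.3 CPM in AL NK cells, a log2 fold change of 2.33 ± 0.23 (SE; adjusted p = 3.51e-08). *Tmem176b*, a membrane protein, was at 378, 368 and 477 CPM and 5.89 and 7.62 CPM, a log2 fold change of 5.93 ± 0.31 (SE; adjusted p = 9.31e-12). Its neighbour *Tmem176a* was at 189.7, 203 and 217 CPM and 1.52 and 3.81 CPM, and since the 2 genes overlap on opposite strands their reads may be shared. *Kit*, the stem cell factor receptor, was at 39.8, 26.7 and 55.4 CPM against 48.6 and 15.2 CPM and was not called (adjusted p = 0.818).

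Cytotoxic granule genes were mostly lower in AL 7R+ ILC1s, with 12 of 20 tested called lower and 3 higher (median log2 fold change -0.80), but the granzymes did not move together. *Gzma*, granzyme A, was at 1439.7, 1312 and 1232 CPM in AL 7R+ ILC1s and at 7356 and 7504 CPM in AL NK cells, a log2 fold change of -2.48 ± 0.21 (SE; adjusted p = 1.18e-06). *Gzmb*, granzyme B, was at 1008, 1275 and 929 CPM and 1068 and 1497 CPM, so that the groups overlapped, and it was not called (log2 fold change -0.26 ± 0.19 SE, adjusted p = 0.404, 95% interval -0.66 to 0.14). *Gzmc*, granzyme C, was at 136, 136 and 129.9 CPM and 1.9 and 2.03 CPM, a log2 fold change of 6.08 ± 0.57 (SE; adjusted p = 9.13e-07). Granzyme A was thus several-fold lower, B was not called and C was found almost only in the ILC1 libraries. *Gzmm*, granzyme M, was lower at 2.42, 3.75 and 2.08 CPM against 19.2 and 17 CPM (log2 fold change -2.74 ± 0.47 SE, adjusted p = 0.000124). *Prf1*, the pore former perforin, was at 401, 366 and 297 CPM against 1872 and 2066 CPM (log2 fold change -2.48 ± 0.12 SE, adjusted p = 1.49e-13). *Serpinb9*, an inhibitor of granzyme B, was at 318, 391 and 331 CPM against 1015 and 1131 CPM (log2 fold change -1.63 ± 0.10 SE, adjusted p = 5.6e-12). Perforin and this inhibitor were lower in every ILC1 library than in either NK library. On a scale per kilobase of exon, the mean levels in AL 7R+ ILC1s were 1320 for *Gzma*, 746 for *Gzmb*, 150 for *Gzmc* and 137 for *Prf1*, and in AL NK cells 7386, 893, 2.2 and 762 CPM per kilobase. Of the granule machinery, *Srgn*, the proteoglycan that packs granzymes, was higher at 546, 513 and 465 CPM against 237 and 292 CPM (log2 fold change 0.94 ± 0.11 SE, adjusted p = 5.78e-07). *Lyst*, which controls the size of lysosome-related organelles, was higher at 138, 143 and 149 CPM against 28.9 and 30.5 CPM (log2 fold change 2.27 ± 0.19 SE, adjusted p = 1.69e-09).

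Ligands of the TNF family went the other way. Of 8 tested, 6 were higher in AL 7R+ ILC1s and 2 were not called (median log2 fold change 2.08), with 0 lower by edgeR at an adjusted or unadjusted p under 0.05 and 0 in DESeq2. *Tnfsf10*, which encodes TRAIL, was at 237, 236 and 236 CPM in AL 7R+ ILC1s and 7.6 and 15.5 CPM in AL NK cells, a log2 fold change of 4.40 ± 0.21 (SE; adjusted p = 5.89e-14). *Tnfsf8*, the CD30 ligand, was at 56.8, 80.7 and 67.4 CPM and 1.52 and 8.9 CPM, a log2 fold change of 3.80 ± 0.44 (SE; adjusted p = 9.51e-07). *Ltb*, which encodes lymphotoxin beta, a signal for lymphoid stroma, was at 697, 623 and 692 CPM and 119.9 and 108 CPM, a log2 fold change of 2.55 ± 0.11 (SE; adjusted p = 8.06e-15). In each case all ILC1 libraries were above both NK libraries. *Tnf* was low in both groups, at 12.3, 16.2 and 9.56 CPM against 3.99 and 1.02 CPM (log2 fold change 2.27 ± 0.59 SE, adjusted p = 0.00743), and was not called without AL NK replicate 2 (adjusted p = 0.128). The death ligand *Fasl* was at 389, 398 and 374 CPM against 363 and 384 CPM, with groups that overlapped, and was not called (log2 fold change 0.05 ± 0.10 SE, adjusted p = 0.799, 95% interval -0.15 to 0.25).

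Among 16 secreted cytokines and chemokines tested, 5 were higher and 1 was lower in AL 7R+ ILC1s (37.5% called, against 18.4% of all genes tested). Leaving out AL NK replicate 2, 3 were higher, and without AL 7R+ ILC1 replicate 3, 2 were lower. *Xcl1*, lymphotactin, which draws cross-presenting dendritic cells, was at 427, 324 and 397 CPM in AL 7R+ ILC1s and 73.5 and 98.4 CPM in AL NK cells, a log2 fold change of 2.16 ± 0.19 (SE; adjusted p = 1.43e-08). *Il2* was at 22.2, 29.8 and 28.9 CPM and 0.76 and 0 CPM, a log2 fold change of 5.90 ± 0.51 (SE; adjusted p = 3.59e-09). *Ccl1*, the ligand of CCR8, was at 11, 10.6 and 89.4 CPM with 3 counts over the NK libraries. It was called with all libraries (adjusted p = 0.0262) but not without AL NK replicate 1 (0.168) or AL NK replicate 2 (0.15). *Ccl5*, the gene that was lower, was at 2276, 2015 and 2003 CPM against 2992 and 3175 CPM (log2 fold change -0.56 ± 0.10 SE, adjusted p = 0.000133). *Ifng*, the hallmark cytokine of both lineages, was at 63.1, 63.3 and 87.5 CPM against 94.2 and 83.1 CPM and was not called (log2 fold change -0.31 ± 0.21 SE, adjusted p = 0.361, 95% interval -0.74 to 0.12).

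Cytokine receptor chains were called in both directions, 11 of 29 higher and 6 lower in AL 7R+ ILC1s (median log2 fold change -0.05). That is 58.6% called, against 18.4% of all genes tested. Apart from *Il7r*, chains that signal with the common gamma chain were among those higher. *Il2ra*, the high-affinity chain of the IL-2 receptor, was at 49.1, 52.1 and 73.3 CPM in AL 7R+ ILC1s and 3.8 and 5.59 CPM in AL NK cells, a log2 fold change of 3.65 ± 0.40 (SE; adjusted p = 2.06e-07). *Il21r* was at 306, 300.1 and 272 CPM and 27.2 and 26.4 CPM, a log2 fold change of 3.44 ± 0.14 (SE; adjusted p = 5.41e-15). *Il2rg*, the common gamma chain itself, was at 775, 792 and 823 CPM and 825 and 824 CPM and was not called (95% interval of the log2 fold change -0.20 to 0.10). The shared chain was thus not called while these partners were. *Il12rb1*, shared by the receptors for IL-12 and IL-23, was higher at 183, 185 and 218 CPM against 44.6 and 54.4 CPM (log2 fold change 1.99 ± 0.14 SE, adjusted p = 8.72e-11). The receptor for IL-18 was lower. *Il18rap*, its accessory chain, was at 296, 341 and 298 CPM against 836 and 871 CPM (log2 fold change -1.46 ± 0.10 SE, adjusted p = 3.71e-11), and *Il18r1*, its binding chain, at 105, 156 and 79.3 CPM against 174 and 231 CPM (log2 fold change -0.84 ± 0.22 SE, adjusted p = 0.0102). *Il18r1* was not called without AL NK replicate 2 (-0.63, adjusted p = 0.16). *Il10ra* was lower at 178, 119 and 127 CPM against 363 and 321 CPM (log2 fold change -1.28 ± 0.16 SE, adjusted p = 1.06e-06), and *Ifngr1*, the receptor for interferon-gamma, at 919, 1018 and 1226 CPM against 2169 and 1759 CPM (log2 fold change -0.90 ± 0.10 SE, adjusted p = 3.38e-07).

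Downstream of these receptors, 7 of 19 JAK, STAT, SOCS and CISH genes were higher in AL 7R+ ILC1s and 2 were lower. That is 47.4% called, against 18.4% of all genes tested. Feedback inhibitors that STAT5 induces were among those higher. *Socs2* was at 310.5, 334 and 334 CPM in AL 7R+ ILC1s and 17.7 and 22.9 CPM in AL NK cells, a log2 fold change of 4.02 ± 0.17 (SE; adjusted p = 8.06e-15). *Cish* was at 173, 165 and 147 CPM and 22.8 and 21.6 CPM, a log2 fold change of 2.86 ± 0.18 (SE; adjusted p = 1.97e-11). *Socs1* was at 213, 254 and 225 CPM and 91.4 and 120.2 CPM, a log2 fold change of 1.13 ± 0.12 (SE; adjusted p = 1.27e-07). The 3 inhibitors did not overlap between the groups, which held for nearly all called genes. Of the kinases, *Jak1* was lower at 927, 1019 and 885 CPM against 1845 and 1814 CPM (log2 fold change -0.96 ± 0.09 SE, adjusted p = 2.75e-08), *Tyk2* was lower (-1.01 ± 0.15 SE, adjusted p = 2.1e-05) and *Jak2* was higher at 188, 144 and 118 CPM against 56.4 and 64.3 CPM (log2 fold change 1.31 ± 0.19 SE, adjusted p = 1.05e-05). *Stat3* and *Stat6* were not called, although *Stat3* was without AL 7R+ ILC1 replicate 1 (-0.32, adjusted p = 0.0418).

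Most receptors for migration were called. Of 22 tested, 10 were higher in AL 7R+ ILC1s, 8 were lower and 4 were not called. The receptors that let lymphocytes leave tissue were lower. *S1pr5* (ENSMUSG00000045087, chr9:21242912-21248443, minus strand), the sphingosine-1-phosphate receptor of NK cells, was at 4.4, 1.88 and 1.47 CPM in AL 7R+ ILC1s and 770.5 and 778 CPM in AL NK cells, a log2 fold change of -8.32 ± 0.34 (SE; adjusted p = 8.8e-13). *S1pr1*, its relative in most lymphocytes, was at 3.52, 0.235 and 3.19 CPM and 165 and 115 CPM, a log2 fold change of -5.80 ± 0.33 (SE; adjusted p = 1.06e-11). *Cx3cr1*, the fractalkine receptor of circulating NK cells, was at 0, 1.41 and 1.72 CPM against 30.8 and 88.4 CPM (log2 fold change -5.71 ± 0.84 SE, adjusted p = 2.81e-05), with its NK libraries apart from each other but above all ILC1 libraries. Other receptors were higher in AL 7R+ ILC1s than in AL NK cells, and *Ltb4r1* and *Ccr8* were all but absent from the NK libraries. *Ltb4r1* (ENSMUSG00000046908, chr14:55765962-55768494, plus strand), the receptor for leukotriene B4, was at 26.8, 35 and 26.1 CPM in AL 7R+ ILC1s and had no count in either NK library. With 3 counts over both NK libraries taken as the limit, it was at least 87.4-fold higher (adjusted p = 2.67e-07). *Ccr8* was at 18.48, 19.5 and 35.3 CPM against 0.76 and 0.254 CPM (log2 fold change 5.46 ± 0.76 SE, adjusted p = 6.75e-06). *Cxcr3*, a receptor for interferon-induced chemokines, was at 554, 508 and 556 CPM against 116 and 69.4 CPM (log2 fold change 2.53 ± 0.15 SE, adjusted p = 5.41e-12). *Ccr2* was not called, at 662, 665 and 654 CPM against 839 and 737 CPM (adjusted p = 0.598).

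The start regions of 4 of these genes are shown. Over the transcription factors and migration receptors as a single list, they are the 2 called genes per direction with the largest fitted fold change among those at 10 CPM or more that had an entry among the promoters used. *Gpr34* had none. Each sequence runs 5′ to 3′ along the strand of its gene, from 250 bases before to 50 bases after the start of a RefSeq transcript on GRCm38.p6, with capitals marking exact matches to a searched motif on either strand, none of which overlap. The motifs were the T-box site GGTGTGA, the core AGGTCA of ROR elements, the KLF box GGGTGGG and the RUNX core TGTGGT. The regions are chr14:55765712-55766011 for *Ltb4r1*, chr9:123806227-123806526 for *Cxcr6*, chr9:21248394-21248693 on the minus strand for *S1pr5* and chr9:118477939-118478238 for *Eomes*.
Ltb4r1: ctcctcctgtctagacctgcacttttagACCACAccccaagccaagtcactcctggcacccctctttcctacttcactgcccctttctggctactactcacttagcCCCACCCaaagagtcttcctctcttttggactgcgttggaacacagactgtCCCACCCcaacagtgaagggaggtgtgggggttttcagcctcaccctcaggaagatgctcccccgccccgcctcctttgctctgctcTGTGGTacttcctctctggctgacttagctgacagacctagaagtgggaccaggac
Cxcr6: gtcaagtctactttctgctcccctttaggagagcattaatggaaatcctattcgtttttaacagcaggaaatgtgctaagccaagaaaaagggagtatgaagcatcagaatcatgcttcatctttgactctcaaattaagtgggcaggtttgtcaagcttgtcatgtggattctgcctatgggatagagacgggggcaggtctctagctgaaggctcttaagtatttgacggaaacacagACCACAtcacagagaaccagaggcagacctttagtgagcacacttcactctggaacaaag
S1pr5: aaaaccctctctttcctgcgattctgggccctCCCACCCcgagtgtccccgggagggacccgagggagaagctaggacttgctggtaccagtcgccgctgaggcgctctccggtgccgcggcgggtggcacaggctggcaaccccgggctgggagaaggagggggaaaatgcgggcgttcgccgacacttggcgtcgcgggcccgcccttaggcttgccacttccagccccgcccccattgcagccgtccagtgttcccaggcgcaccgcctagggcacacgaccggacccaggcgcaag
Eomes: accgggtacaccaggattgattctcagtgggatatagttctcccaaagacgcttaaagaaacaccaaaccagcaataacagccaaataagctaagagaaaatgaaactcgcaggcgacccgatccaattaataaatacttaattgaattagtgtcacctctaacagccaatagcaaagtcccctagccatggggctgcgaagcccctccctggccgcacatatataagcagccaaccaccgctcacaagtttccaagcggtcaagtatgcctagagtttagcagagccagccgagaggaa
The window of *Ltb4r1* held 2 KLF boxes and 2 RUNX cores, that of *Cxcr6* 1 RUNX core, that of *S1pr5* 1 KLF box, and that of *Eomes* none of the 4 motifs. Of 27025 promoters of the same length, 3.96% held the T-box site, 16% the ROR core, 17.2% the KLF box and 16.9% the RUNX core. Among the 942 promoters of genes called higher in AL 7R+ ILC1s these shares were 2.76%, 11.7%, 24.9% and 16.1%, and among the 898 of genes called lower they were 3.23%, 11.5%, 24.6% and 13.6%. Over the 9442 promoters of all genes tested they were 3.4%, 12.1%, 20.5% and 13.3%. The letters of a match are a description of the window and not a binding site.

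Integrins and adhesion molecules were called in both directions, with 9 of 27 higher in AL 7R+ ILC1s and 12 lower. *Itgam*, which encodes CD11b, a maturity marker of NK cells, was at 29.9, 35.9 and 18.4 CPM in AL 7R+ ILC1s and 383 and 426 CPM in AL NK cells, a log2 fold change of -3.88 ± 0.19 (SE; adjusted p = 1.49e-13). *Itga4*, the alpha chain of VLA-4, was at 76.8, 67.1 and 77.8 CPM and 607 and 834 CPM, a log2 fold change of -3.28 ± 0.12 (SE; adjusted p = 1.42e-15). *Itgb3*, a chain of the vitronectin receptor, was higher at 95.5, 139.6 and 166 CPM and 13.1 and 18.8 CPM, a log2 fold change of 3.08 ± 0.27 (SE; adjusted p = 5.7e-09). Calls were thus made for chains of several matrix receptors besides CD49a and CD49b. *Epcam*, the epithelial adhesion molecule, was at 11.9, 16 and 10.2 CPM against 1.33 and 0 CPM (log2 fold change 4.03 ± 0.61 SE, adjusted p = 2.02e-05). *Cd226*, the activating receptor DNAM-1, was at 389, 416 and 355 CPM against 53 and 71.4 CPM (log2 fold change 2.64 ± 0.17 SE, adjusted p = 2.16e-11). *Itgal*, a chain of LFA-1, was not called at 1323, 1275 and 1240.1 CPM against 1468 and 1418 CPM (adjusted p = 0.159).

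Ly49 receptors, many of which read MHC class I on target cells, were lower almost as a block. Of 9 tested, 8 were lower in AL 7R+ ILC1s and 1 was not called (median log2 fold change -5.70). *Klra8*, which encodes the activating receptor Ly49H, was at 2.86, 1.88 and 1.1 CPM in AL 7R+ ILC1s and 1199.9 and 1443 CPM in AL NK cells, a log2 fold change of -9.51 ± 0.54 (SE; adjusted p = 1.9e-08). *Klra7* was at 7.26, 7.27 and 2.21 CPM and 603 and 799 CPM, a log2 fold change of -7.12 ± 0.41 (SE; adjusted p = 1.15e-08). *Klra1* was at 1.1, 0 and 0.123 CPM and 81.7 and 89 CPM, a log2 fold change of -7.80 ± 0.78 (SE; adjusted p = 6.75e-06). *Klra5* was the member that was not called, at 26, 21.8 and 9.8 CPM against 19.2 and 12.5 CPM, so that the groups overlapped. Its log2 fold change (0.18 ± 0.63 SE, adjusted p = 0.901) turned negative without AL 7R+ ILC1 replicate 1 or AL NK replicate 2. *Klra9* was lower but present in both groups, at 108, 132 and 78.8 CPM against 679 and 605 CPM (log2 fold change -2.61 ± 0.18 SE, adjusted p = 1.04e-09). The pseudogene *Klra13-ps* was at 1.98, 25.8 and 1.35 CPM, with its second library above the other two, against 2844 and 2979 CPM (log2 fold change -8.45 ± 0.75 SE, adjusted p = 2.58e-06), and DESeq2 gave it no adjusted p. These genes lie side by side on chromosome 6 and are near copies of each other, so reads may be shared among them and the value of a single member is uncertain.

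Of 19 other lectin-like and activating receptors, 4 were higher in AL 7R+ ILC1s and 6 lower (52.6% called, against 18.4% of all genes tested). *Cd160*, a receptor for HVEM, was at 969, 1010.0 and 1023 CPM in AL 7R+ ILC1s and 133 and 95.8 CPM in AL NK cells, a log2 fold change of 3.12 ± 0.13 (SE; adjusted p = 8.06e-15). *Klrc1*, which encodes the inhibitory receptor NKG2A, was at 2080.2, 2018 and 1752 CPM and 846 and 647 CPM, a log2 fold change of 1.38 ± 0.12 (SE; adjusted p = 4.97e-09). *Klrg1*, an inhibitory receptor of mature NK cells, was at 10.1, 7.04 and 8.94 CPM and 226 and 261 CPM, a log2 fold change of -4.80 ± 0.27 (SE; adjusted p = 2.31e-12). For these receptors every ILC1 library lay on the same side of the NK libraries. *Lair1*, a collagen receptor, was lower at 0, 1.64 and 0.245 CPM against 31 and 40.7 CPM (log2 fold change -5.96 ± 0.73 SE, adjusted p = 1.62e-06), and *Klri2* at 229.9, 365 and 292 CPM against 1293 and 1338 CPM (log2 fold change -2.15 ± 0.14 SE, adjusted p = 2.28e-10). *Klrk1*, which encodes NKG2D, was at 2409, 2325 and 2264 CPM against 2511 and 2307 CPM, with groups that overlapped, and was not called (95% interval of the log2 fold change -0.19 to 0.09).

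The chains and kinases that carry the signals of these receptors were exchanged in part, with 8 of 24 higher in AL 7R+ ILC1s and 8 lower. That is 66.7% called, against 18.4% of all genes tested. *Cd3g*, a chain of the T cell receptor complex, was at 206, 250.1 and 181 CPM in AL 7R+ ILC1s and 6.08 and 4.32 CPM in AL NK cells, a log2 fold change of 5.31 ± 0.23 (SE; adjusted p = 2.3e-13). *Cd3d*, its neighbour on chromosome 9, was at 8.14, 3.28 and 4.66 CPM and 4.37 and 2.03 CPM and was not called (adjusted p = 0.371), and *Cd3e* was at or near 0 throughout. *Cd247*, the zeta chain used by NK receptors, was lower at 51.3, 57.7 and 40.8 CPM and 199 and 232 CPM, a log2 fold change of -2.12 ± 0.14 (SE; adjusted p = 4.7e-11). The CD3 chains therefore did not follow each other, and only *Cd3g* was higher. *Syk* was lower at 117, 75.8 and 88.2 CPM against 260.1 and 263 CPM (log2 fold change -1.48 ± 0.15 SE, adjusted p = 7.13e-08), and *Zap70*, the related kinase of T cells, was higher at 382, 355 and 364 CPM against 216 and 194 CPM (log2 fold change 0.84 ± 0.09 SE, adjusted p = 9.77e-08). *Fyn* was lower at 162, 189 and 166 CPM against 611 and 528 CPM (log2 fold change -1.73 ± 0.10 SE, adjusted p = 2.31e-12). *Sh2d1a*, which encodes the adaptor SAP, was lower at 2.86, 4.22 and 1.47 CPM against 161 and 120.2 CPM (log2 fold change -5.74 ± 0.36 SE, adjusted p = 4.72e-11), and so was *Slamf6*, a receptor that signals through it, at 0.44, 0.235 and 0.245 CPM against 27.6 and 30 CPM (log2 fold change -6.49 ± 0.63 SE, adjusted p = 3.27e-08). *Plcg1* was higher at 48.4, 37.5 and 39.2 CPM against 0.19 and 5.08 CPM (log2 fold change 4.10 ± 0.55 SE, adjusted p = 4.24e-06).

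Transcripts of the constant segments of antigen receptor loci were present in all 5 libraries, although the gate was CD3-. *Tcrg-C1*, a constant segment of the gamma chain, was at 107, 115 and 145 CPM in AL 7R+ ILC1s with 3 counts over the NK libraries, a ratio of 390.2 (95% interval 133 to 1894). *Trbc2*, of the beta chain, was at 417, 395 and 392.02 CPM and 97.8 and 85.9 CPM, a log2 fold change of 2.12 ± 0.11 (SE; adjusted p = 5.01e-13). *Trdc*, of the delta chain, was lower at 36.7, 42.5 and 51.5 CPM and 168 and 139.8 CPM, a log2 fold change of -1.81 ± 0.28 (SE; adjusted p = 8.12e-05). *Ighm*, of the mu heavy chain, was higher at 613, 594 and 656 CPM against 228 and 209.7 CPM (log2 fold change 1.504 ± 0.10 SE, adjusted p = 1.82e-11). *Cd3e*, *Cd5*, *Cd6* and *Cd8a* were at or near 0 beside them, as was *Ms4a1*. *Cd4* was not, at 5.94, 8.21 and 5.51 CPM in AL 7R+ ILC1s against 0.38 and 0.254 CPM in AL NK cells. The part of a few T or B cells in the 4 constant segment genes was not tested.

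Costimulatory and checkpoint receptors were more often higher than lower, 11 against 5 of 23 tested (median log2 fold change 1.05). *Cd200r1*, an inhibitory receptor for CD200, was at 200.4, 182 and 187 CPM in AL 7R+ ILC1s and 0.76 and 1.27 CPM in AL NK cells, a log2 fold change of 7.56 ± 0.30 (SE; adjusted p = 3.76e-15). *Cd200r2*, its relative, was at 215, 267 and 215 CPM and 1.33 and 0 CPM, a log2 fold change of 8.21 ± 0.37 (SE; adjusted p = 4.78e-14). *Tnfrsf25*, the receptor for TL1A, was at 90.2, 69.7 and 100.6 CPM and 4.56 and 5.59 CPM, a log2 fold change of 4.11 ± 0.38 (SE; adjusted p = 1.43e-08). The NK libraries stayed below 6 CPM for each of these receptors. *Lag3*, a checkpoint receptor for MHC class II, was at 37.6, 36.1 and 37 CPM against 2.28 and 2.54 CPM (log2 fold change 3.93 ± 0.33 SE, adjusted p = 2.56e-09), and *Icos* at 68.9, 71.1 and 89.2 CPM against 23 and 21.9 CPM (log2 fold change 1.77 ± 0.21 SE, adjusted p = 8.98e-07). *Tnfrsf9*, which encodes 4-1BB, was lower at 99.5, 65.2 and 82.4 CPM against 165 and 214 CPM (log2 fold change -1.20 ± 0.27 SE, adjusted p = 0.00406), but not without AL NK replicate 2 (adjusted p = 0.0605). In place of the 5 lower genes of the list, 1 was lower without that library, 2 without AL 7R+ ILC1 replicate 3 and 3 without AL 7R+ ILC1 replicate 2. *Cd28* was not called, at 91.1, 96.2 and 89.8 CPM against 90.8 and 81.1 CPM, and *Cd69*, a retention receptor, was not called at 95.1, 73 and 93 CPM against 99 and 118 CPM.

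Genes that sense and clear extracellular ATP and adenosine were higher for 6 of 12 tested and lower for 2, or for 1 without AL NK replicate 1. With all libraries 66.7% were called, against 18.4% of all genes tested. *P2rx7*, the ATP-gated channel, was at 75.3, 53.5 and 64.3 CPM in AL 7R+ ILC1s and 0.57 and 0.762 CPM in AL NK cells, a log2 fold change of 6.57 ± 0.50 (SE; adjusted p = 4.21e-10). *Art2b*, the ectoenzyme that can open this channel from NAD, was at 27.7, 20.2 and 18.9 CPM and 0.76 and 0 CPM, a log2 fold change of 5.61 ± 0.79 (SE; adjusted p = 1.28e-05). *Ada*, adenosine deaminase, was at 44.2, 31 and 44.8 CPM and 7.03 and 9.4 CPM, a log2 fold change of 2.295 ± 0.36 (SE; adjusted p = 3.11e-05). The channel, its modifier and the deaminase were thus all higher in each ILC1 library. *P2ry14*, a receptor for UDP-glucose, was lower at 3.52, 0 and 1.59 CPM against 22.8 and 24.4 CPM (log2 fold change -3.77 ± 0.48 SE, adjusted p = 2.07e-06).

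Interferon-stimulated genes were higher for 10 of 22 tested (median log2 fold change 0.78), but for 3 without AL NK replicate 1. With all libraries 45.5% were called, against 18.4% of all genes tested. By edgeR at an unadjusted p under 0.05 and by DESeq2, 0 were lower. *Isg15* was at 18.7, 22.1 and 25.5 CPM in AL 7R+ ILC1s and 8.36 and 8.39 CPM in AL NK cells, a log2 fold change of 1.40 ± 0.39 (SE; adjusted p = 0.0128). *Ifit3* was at 37, 42 and 26.6 CPM and 9.12 and 11.2 CPM, a log2 fold change of 1.79 ± 0.49 (SE; adjusted p = 0.0108). Neither was called without AL NK replicate 1 (adjusted p = 0.0972 and 0.124) or without AL NK replicate 2 (0.0818 and 0.0591). *Irf7* and *Zbp1* were not called, at 174, 160.5 and 204 CPM against 172 and 146 CPM and at 82.1, 88.9 and 91.8 CPM against 84.4 and 79.3 CPM.

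Immediate early genes, which also respond to tissue digestion and sorting, were lower for 6 of 22 tested (median log2 fold change -0.37). That is 27.3% called, against 18.4% of all genes tested. *Junb* was at 159.8, 158 and 177 CPM in AL 7R+ ILC1s and 337 and 377 CPM in AL NK cells, a log2 fold change of -1.11 ± 0.10 (SE; adjusted p = 4.11e-09). *Nr4a2* was at 4.84, 7.98 and 3.55 CPM and 21.1 and 53.9 CPM, a log2 fold change of -2.80 ± 0.49 (SE; adjusted p = 0.000158). *Ier2* was at 182, 179 and 211 CPM and 299.8 and 337 CPM, a log2 fold change of -0.74 ± 0.12 (SE; adjusted p = 7.32e-05). Each was lower in all ILC1 libraries. Of 12 heat shock chaperones 2 were lower, or 16.7% called against 18.4% of all genes tested. They were the cochaperone *Bag3* at 0.66, 0.704 and 0.49 CPM against 11.4 and 21.3 CPM (log2 fold change -4.71 ± 0.86 SE, adjusted p = 0.000221) and *Hspa1b*. *Hspa1b*, an inducible HSP70 gene, was at 3.96, 7.27 and 4.41 CPM against 6.08 and 23.9 CPM, so that the groups overlapped. Its log2 fold change (-1.52 ± 0.52 SE, adjusted p = 0.0435) was -0.23 without AL NK replicate 2 (adjusted p = 0.881), and it was not called either without AL 7R+ ILC1 replicate 1 (0.129) or replicate 3 (0.117).

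Genes of survival were called in both directions. Of 14 BCL2 family genes 4 were higher and 4 lower (57.1% called, against 18.4% of all genes tested). *Bcl2*, the survival factor, was at 1537, 1729 and 1474 CPM in AL 7R+ ILC1s and 937 and 988 CPM in AL NK cells, a log2 fold change of 0.71 ± 0.08 (SE; adjusted p = 2.5e-07). *Bcl2a1d*, a related factor in a family of near copies, was at 56.3, 33.3 and 48.5 CPM and 4.37 and 7.88 CPM, a log2 fold change of 2.93 ± 0.44 (SE; adjusted p = 1.86e-05). *Mcl1* was lower at 136, 148 and 182 CPM and 270.4 and 302 CPM, a log2 fold change of -0.88 ± 0.19 (SE; adjusted p = 0.00145). *Bcl2* and *Mcl1*, on which lymphocytes rely for survival, were thus called in opposite directions. *Pmaip1*, which encodes the killer protein NOXA, had 1 count over the ILC1 libraries and stood at 7.22 and 23.6 CPM in AL NK cells, a ratio of NK to ILC1 levels of 242 (95% interval 42.6 to 9618).

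Of 15 genes of TGF-beta signaling, 5 were higher and 5 lower (66.7% called, against 18.4% of all genes tested). Without AL NK replicate 2, 3 were higher and 2 lower, and without AL NK replicate 1, 3 were lower. *Tgfbr1*, the type I receptor, was higher at 94.6, 105 and 111 CPM against 30 and 40.4 CPM (log2 fold change 1.57 ± 0.24 SE, adjusted p = 2.93e-05). *Eng*, the coreceptor endoglin, was at 19.1, 16.4 and 15.9 CPM in AL 7R+ ILC1s with no count in either NK library, at least 51.9-fold higher against the same limit of 3 counts. *Acvr1b*, an activin receptor, was at 11.9, 14.1 and 22.8 CPM against 1.14 and 3.3 CPM (log2 fold change 2.92 ± 0.53 SE, adjusted p = 0.000211), and the repressor *Tgif1* was lower at 17.6, 15.3 and 22.7 CPM against 44.8 and 46.8 CPM (log2 fold change -1.29 ± 0.25 SE, adjusted p = 0.000538). These 4 genes did not overlap between the groups, like nearly all called genes.

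Of 25 PI3K, mTOR and nutrient genes 2 were higher and 5 lower. That is 28% called, against 18.4% of all genes tested (9.74% higher and 8.7% lower). Without AL 7R+ ILC1 replicate 3 or AL NK replicate 2, 3 were lower, and without AL 7R+ ILC1 replicate 1 or 2 or AL NK replicate 1, 1 was higher. *Inpp4b*, a phosphatase that ends PI3K signals, was at 339, 334 and 303 CPM in AL 7R+ ILC1s and 3.42 and 6.35 CPM in AL NK cells, a log2 fold change of 6.10 ± 0.27 (SE; adjusted p = 2.81e-14). *Pik3r5*, a regulator of PI3K gamma, was lower at 124, 148 and 191 CPM against 403 and 336 CPM (log2 fold change -1.26 ± 0.14 SE, adjusted p = 3.51e-07), and *Slc7a5*, an amino acid transporter, at 2.2, 4.93 and 4.78 CPM against 13.7 and 14 CPM (log2 fold change -1.77 ± 0.47 SE, adjusted p = 0.00914). Glycolysis genes were higher for 3 of 17 and lower for 4 (41.2% called). *Pdk1*, which holds pyruvate back from the mitochondria, was higher at 64.2, 79.3 and 88.3 CPM against 17.7 and 11.2 CPM (log2 fold change 2.40 ± 0.24 SE, adjusted p = 3.89e-08), and *Pfkp*, a phosphofructokinase, was lower at 163, 113 and 148 CPM against 527 and 585 CPM (log2 fold change -1.97 ± 0.12 SE, adjusted p = 9.11e-12). Of 23 cell cycle genes 1 was lower and 22 were not called, or 4.35% called against 18.4% of all genes tested. Without AL 7R+ ILC1 replicate 3, 2 were lower and 1 higher, and without AL NK replicate 2, 0 were lower and 1 higher. *Mki67*, the marker of cycling cells, was at 11.4, 25.6 and 38.8 CPM against 26.6 and 47.5 CPM with groups that overlapped (adjusted p = 0.727). Of 9 regulators of G protein signaling 3 were higher and 1 lower, the latter not without AL 7R+ ILC1 replicate 3 or AL NK replicate 2. *Rgs1*, which dampens chemokine receptors and favours residence, was at 368, 353 and 401 CPM against 64.4 and 60 CPM (log2 fold change 2.59 ± 0.13 SE, adjusted p = 1.97e-13), and *Rgs18* at 63.1, 66.4 and 70.4 CPM against 10.3 and 11.9 CPM (log2 fold change 2.59 ± 0.21 SE, adjusted p = 1.65e-09).

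**Figure D3:**
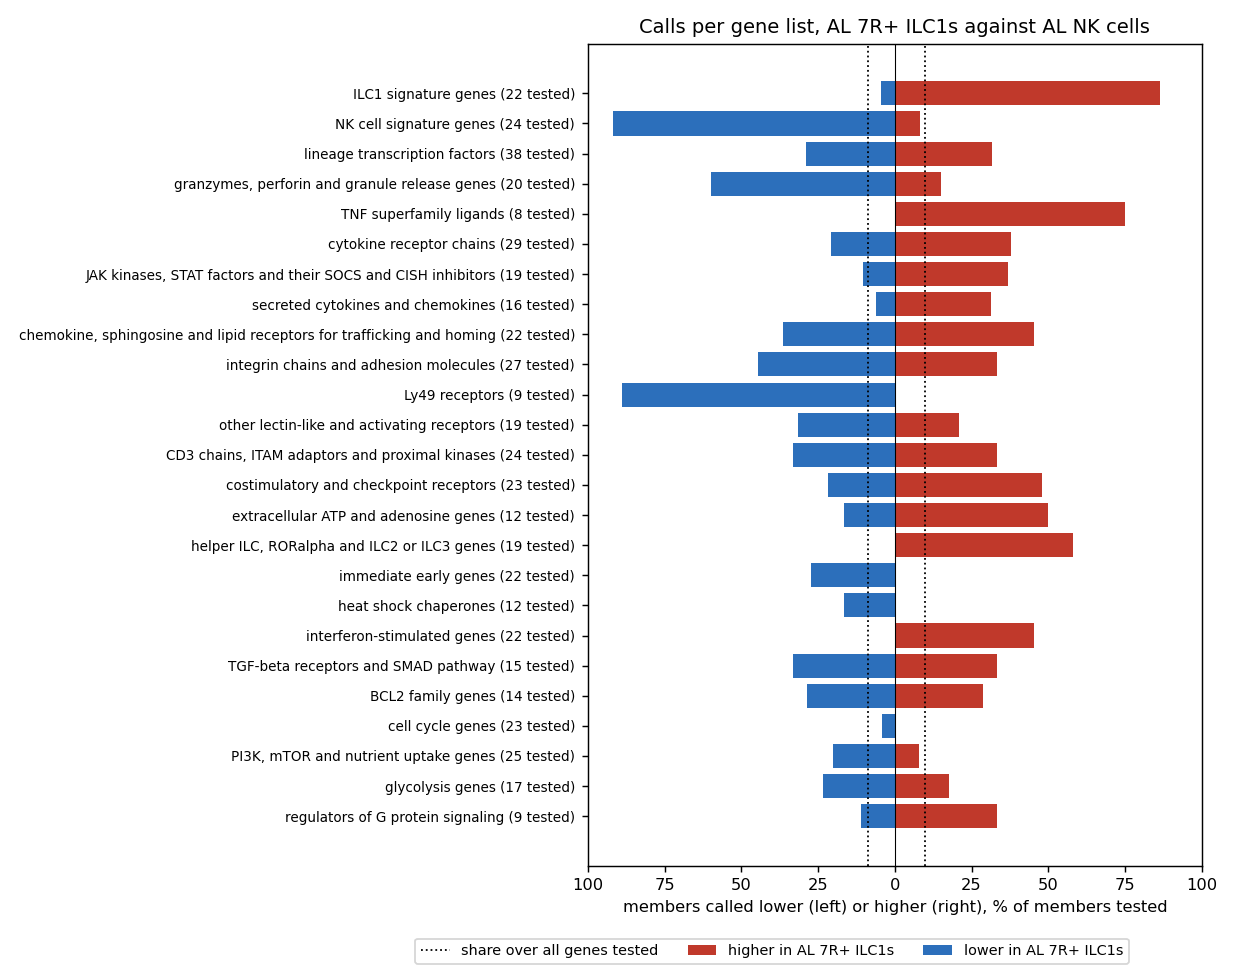
For each of 25 gene lists, the share of members tested that was called higher (red, right) or lower (blue, left) in AL 7R+ ILC1s than in AL NK cells is drawn in percent, with dotted lines at the shares over all genes tested, 9.74% and 8.7%. The signature, Ly49, TNF ligand and granule lists lean to one side, the transcription factor, adhesion and signaling lists hold calls of both directions, and the cell cycle list lies within the dotted lines.

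The other ILC1 subset of the liver was sorted by the same gate but IL-7R- (AL 7R- ILC1s, 4 libraries, also from mice of 8 weeks). Setting AL 7R+ ILC1s beside it gives the levels of these genes in the rest of the liver ILC1s. Since the AL 7R+ libraries enter both comparisons, the values of each are given side by side. Here 857 genes were called (6.38%), with AL 7R+ ILC1s higher for 480 (3.58%) and lower for 377 (2.81%). Without AL 7R+ ILC1 replicate 3, 248 were lower. *Cxcr6* was at 869, 1186, 966 and 866 CPM in AL 7R- ILC1s, *Zfp683* at 220.4, 195, 189.8 and 192 CPM and *Cd200r1* at 215, 230.4, 231 and 285 CPM, and none of the 3 was called between the subsets (adjusted p = 0.922, 0.19 and 0.14). *Eomes* was at 4.77, 1.79, 4.6 and 3.73 CPM and was likewise not called. *Il7r*, on which the subsets were sorted, was at 1.06, 1.07, 0.613 and 4.53 CPM.

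Granzyme genes also differed between the ILC1 subsets. *Gzma* was at 10405, 8407, 9362 and 8507 CPM in AL 7R- ILC1s, so that AL 7R+ ILC1s were lower than these as well (log2 fold change -2.79 ± 0.20 SE, adjusted p = 8.81e-07). *Gzmb* was at 6306, 4508, 5271 and 4611 CPM in AL 7R- ILC1s, all far above those of AL 7R+ ILC1s (log2 fold change -2.27 ± 0.17 SE, adjusted p = 5.78e-07). *Gzmc* was at 266, 209.9, 221 and 319.7 CPM in libraries that did not overlap with those of AL 7R+ ILC1s. It was not called between the subsets (adjusted p = 0.0727), but was lower in AL 7R+ ILC1s in the fit on these groups alone (-0.92, adjusted p = 0.00024) and after thinning to equal depth (-0.96, adjusted p = 0.0434). Granzyme C was thus above 100 CPM in every library of both ILC1 subsets, and A and B were lower in the IL-7R+ subset. *Cd3g* was at 2288, 1919, 2017 and 1772 CPM, a log2 fold change of -3.24 ± 0.14 (SE; adjusted p = 1.32e-12), with AL 7R+ ILC1s between both other groups. *Klra5* was at 602, 509, 606 and 477 CPM, a log2 fold change of -4.91 ± 0.49 (SE; adjusted p = 3.1e-05), and *Htra3*, a secreted protease, at 148, 108, 115 and 96.7 CPM, a log2 fold change of -8.50 ± 0.48 (SE; adjusted p = 1.83e-11).

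For other genes AL 7R+ ILC1s were nearer in level to AL NK cells than to AL 7R- ILC1s, which were far lower. *Emb*, the adhesion chaperone embigin, was at 0, 0.358, 0.153 and 1.87 CPM in AL 7R- ILC1s against 76.1, 79.3 and 91 CPM in AL 7R+ ILC1s and 132 and 124 CPM in AL NK cells, a log2 fold change of 7.26 ± 0.31 (SE; adjusted p = 4.9e-13) between the subsets and of -0.63 ± 0.19 (SE; adjusted p = 0.0209) against AL NK cells. *Cd28* was at 0.265, 4.84, 0.307 and 7.19 CPM in AL 7R- ILC1s, a log2 fold change of 4.95 ± 0.48 (SE; adjusted p = 1.15e-05). *Il18r1* was at 9.02, 9.14, 4.29 and 10.4 CPM, a log2 fold change of 3.83 ± 0.24 (SE; adjusted p = 1.71e-09). *Tcf7* was at 6.9, 8.78, 11.2 and 11.2 CPM (log2 fold change 3.17 ± 0.20 SE, adjusted p = 1.06e-10) and *Ccr2* at 55.2, 109, 101.1 and 159 CPM (log2 fold change 2.64 ± 0.23 SE, adjusted p = 5.55e-06). In these 5 genes every AL 7R- ILC1 library was below every AL 7R+ ILC1 and AL NK library. For *Emb*, *Cd28* and *Il18r1* the rule that named them required this between the ILC1 subsets. Of the helper genes, 14 of 19 were higher in AL 7R+ than in AL 7R- ILC1s, or 73.7% against 3.58% of all genes tested. Some members were named by the study from these same libraries, so this count is not independent evidence either. *Tmem176a* was at 13.3, 13.4, 17 and 18.4 CPM (log2 fold change 3.71 ± 0.22 SE, adjusted p = 1.06e-10), *Rora* at 23.6, 41.2, 29.4 and 23.2 CPM (log2 fold change 2.17 ± 0.18 SE, adjusted p = 8.7e-09), *Il2ra* at 7.69, 12.2, 5.83 and 7.19 CPM (log2 fold change 2.82 ± 0.29 SE, adjusted p = 3.09e-07) and *Tnfrsf25* at 2.12, 5.91, 6.44 and 5.86 CPM (log2 fold change 4.05 ± 0.29 SE, adjusted p = 8.16e-10) in AL 7R- ILC1s. *Mmp9* was at 49.9, 91.7, 104 and 96.2 CPM (log2 fold change 2.45 ± 0.49 SE, adjusted p = 0.0119), but was not called by DESeq2 (adjusted p = 0.203), with the replicate block (0.0973) or with no count filter (0.0532).

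**Figure D4:**
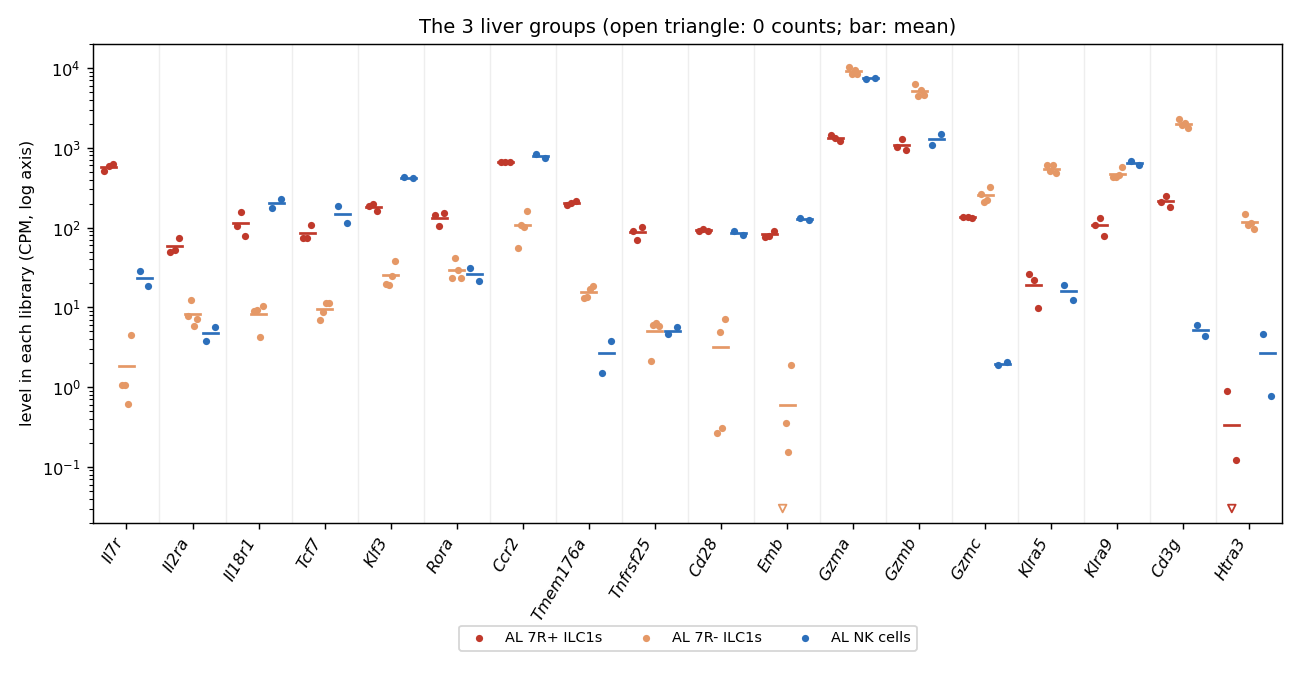
Levels of 18 genes (CPM, log axis) are plotted for each library of AL 7R+ ILC1s (red, 3), AL 7R- ILC1s (orange, 4) and AL NK cells (blue, 2), with bars at the group means and open triangles for libraries with 0 counts. *Emb*, *Cd28* and *Ccr2* are high in AL 7R+ ILC1s and AL NK cells and low in AL 7R- ILC1s, *Gzmc* is high in both ILC1 subsets, and *Il2ra*, *Rora*, *Tmem176a* and *Tnfrsf25* are highest in AL 7R+ ILC1s.

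Bone marrow holds a comparable pair, immature ILC1s (BM iILC1s, 3 libraries) and BM NK cells (3 libraries), of the same age, strain and genotype and defined by CD49a and CD49b in the same way, with no IL-7R gate named. The interaction in the same fit, which uses the same liver libraries as above, tested whether the log2 difference of ILC1s over NK cells in the liver departed from that in the marrow. It was called for 533 genes (3.97%), more positive in the liver for 250 (1.86%) and more negative for 283 (2.11%). Without AL NK replicate 1, 355 were called. *S1pr1* was at 166, 129.5 and 183 CPM in BM iILC1s and 186, 169.9 and 175 CPM in BM NK cells, a liver minus marrow difference of -5.66 ± 0.40 (SE; adjusted p = 9.26e-09) on the log2 scale. *Klra1* was at 106, 103 and 128 CPM and 108, 96.4 and 111 CPM, a difference of -7.90 ± 0.92 (SE; adjusted p = 0.000198). Both genes were at 103 CPM or more in each BM iILC1 library and at 3.52 CPM or less in each AL 7R+ ILC1 library. They were named for a large interaction, which makes such a gap likely. The interaction was negative also for *Klra7* (-5.68 ± 0.49 SE, adjusted p = 8.86e-06) and *Elovl7* (-6.38 ± 0.63 SE, adjusted p = 4.45e-07), and *Klf2* was at 218, 229 and 260.3 CPM in BM iILC1s and 379, 298 and 273 CPM in BM NK cells (-3.50 ± 0.23 SE, adjusted p = 1.25e-09). *Ly6c2*, a surface protein of the Ly6C family, was at 18.9, 22.8 and 23 CPM in AL 7R+ ILC1s and 224 and 279 CPM in AL NK cells, but at 575, 457 and 614 CPM in BM iILC1s and 61.4, 42.9 and 111 CPM in BM NK cells. The ILC1 libraries were thus the lower ones in the liver and the higher ones in the marrow, a difference of -6.47 ± 0.47 (SE; adjusted p = 1.27e-06).

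In the other direction *Gzmc* was at 18.1, 2.51 and 9.34 CPM in BM iILC1s and 2.83, 2.81 and 6.01 CPM in BM NK cells, a difference of 4.69 ± 0.85 (SE; adjusted p = 0.00396). *P2rx7* was at 2.1, 4.6 and 1.49 CPM and 0.884, 0.563 and 0.859 CPM, a difference of 4.77 ± 0.84 (SE; adjusted p = 0.000826), and *Atp8a2* at 8.61, 27.4 and 15.1 CPM and 1.95, 1.13 and 1.72 CPM, a difference of 4.95 ± 0.90 (SE; adjusted p = 0.00192). *Cd200r1* was at 49.6, 78.5 and 69.9 CPM and 2.65, 3.19 and 3.01 CPM (3.08 ± 0.48 SE, adjusted p = 0.000201), and *Asb2* at 92.2, 136 and 92.6 CPM and 2.48, 3.56 and 3.65 CPM (2.82 ± 0.47 SE, adjusted p = 0.000426). For all 5 genes the lowest AL 7R+ ILC1 library was above the highest BM iILC1 library. Such a gap is again likely for genes named for a large interaction. *Gpr34* was called as well (4.30 ± 1.11 SE, adjusted p = 0.0251), on 1 count in the AL NK libraries, but not without AL NK replicate 1 (3.24, adjusted p = 0.257) nor without AL NK replicate 2 (6.76, adjusted p = 0.0598). *Il7r* was at 1271, 1111 and 1190.4 CPM in BM iILC1s and 3.36, 3.38 and 4.29 CPM in BM NK cells (-3.74 ± 0.38 SE, adjusted p = 5.01e-06), but the liver subset was gated on its protein. *Cxcr6*, *Zfp683* and *Itga1* were not called, with adjusted p = 0.851, 0.973 and 0.756.

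**Figure D5:**
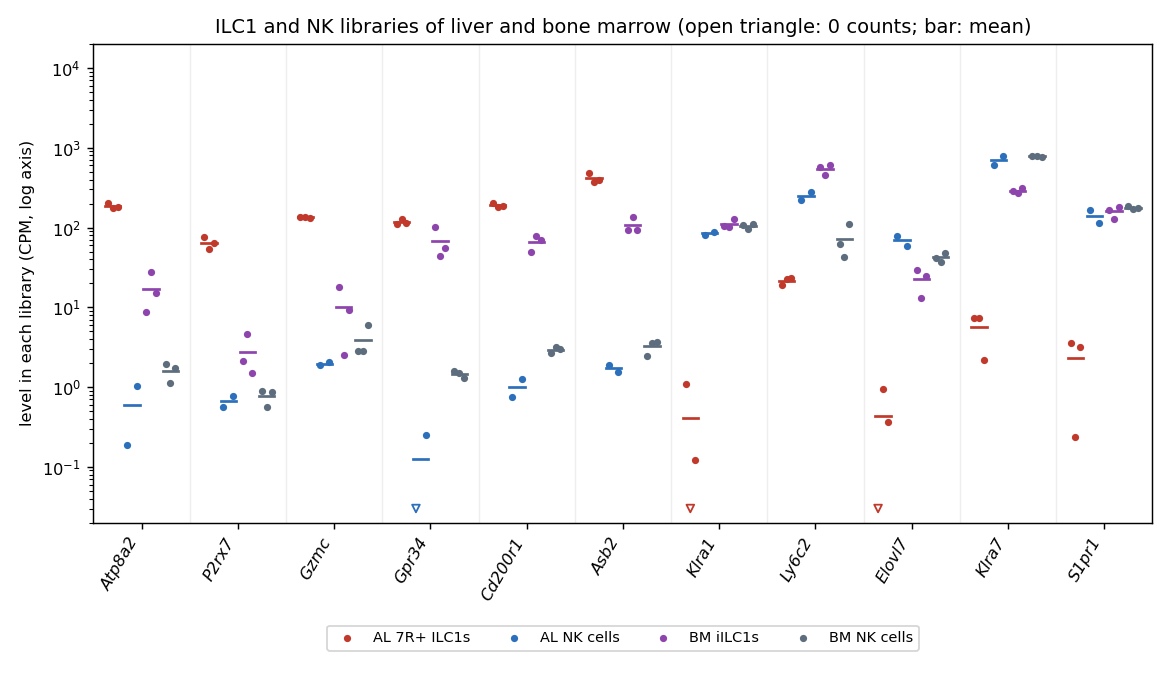
Levels of 11 genes with a large called interaction (CPM, log axis) are plotted for each library of AL 7R+ ILC1s (red), AL NK cells (blue), BM iILC1s (purple) and BM NK cells (grey), with bars at the group means and open triangles for libraries with 0 counts. *Klra1*, *Klra7* and *S1pr1* are under 10 CPM in AL 7R+ ILC1s but not in BM iILC1s, while *Gzmc* and *P2rx7* are above 50 CPM in AL 7R+ ILC1s and under 20 CPM in the other 3 groups.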

How the data were processed

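RNA was amplified with the SMART-seq HT kit from sorted cells. The authors deposited raw read counts per gene, made per the labels with fastp 0.23.0, HISAT2 2.1.0 and featureCounts of Subread 1.6.5 on mm10; the annotation release and the strand and multi-mapping settings are not given in the sources used here. The 46078 gene identifiers were named with GENCODE vM21, with 849 unmatched holding 0.104% of the counts. The counts were fitted with edgeR 4.0.16 (R 4.3.3, limma 3.58.1) using TMM scaling, filterByExpr at a minimum count of 10 and the robust quasi-likelihood test over 6 groups, with 12 residual degrees of freedom; DESeq2 1.42.0 was an alternative. The fetal liver G1-ILC replicates 2 and 3 differed by little more than sampling noise (chi-square per degree of freedom 1.18, against 3.51 to 12.4 for other pairs) and were summed as 1 sample.

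Adjusted p-values come from edgeR unless DESeq2 is named. The 95% intervals of fold changes are from the fit. Ratios with 1 to 3 counts in the lower group carry exact intervals for counting error only. A test on simulated data used the same 13424 genes.

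Genes were named by rule: up to 12 per direction with the largest fold change, libraries that do not overlap and at least 50 CPM in the higher group (6 per direction in the other comparisons), up to 4 called members per direction of each list at 10 CPM or more, up to 2 well expressed members that were not called, genes the study names, and genes of the gate. *Cxcr3*, *Id2*, *Ifng*, *Klra9*, *Serpinb9*, *Tcf7*, *Trbc2*, *Trdc* and *Ighm* fall outside it and were named for their role after their values were seen. Some genes that meet the rule are not reported here. The 25 gene lists, 9 marker lists and members were chosen with earlier results of these data known. Promoter sequences are from RefSeq on GRCm38.p6. The alternatives tried were DESeq2, RLE size factors, 2 other count filters, other sets of groups, thinning to equal depth, a replicate block, a fold limit and leaving out each library.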

Additional observations from a re-analysis of the deposited data

Results flagged for a closer look

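The log2 difference of ILC1s over NK cells departed between liver and marrow, by the interaction term of the edgeR fit, for 11 of the genes named above, and others such as *Klf2* and *Il7r* were also called. *Gpr34* was not called without AL NK replicate 1 or 2 (adjusted p = 0.257 and 0.0598) or BM NK replicate 1 or 2 (0.0669 and 0.0648). The liver minus marrow difference was 4.95 for *Atp8a2*, 4.77 for *P2rx7*, 4.69 for *Gzmc*, 4.30 for *Gpr34*, 3.08 for *Cd200r1* and 2.82 for *Asb2*. It was -7.90 for *Klra1*, -6.47 for *Ly6c2*, -6.38 for *Elovl7*, -5.68 for *Klra7* and -5.66 for *S1pr1*.

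Only genes named for the comparison of the ILC1 subsets were scanned for a library apart. In 3 genes 1 of the 4 libraries of AL 7R- ILC1s stood far from the other 3 by Dixon's test. Replicate 4 was the highest for *Il7r* (4.53 CPM), replicate 3 was the lowest for the pseudogene *Klra14-ps* (44.5 CPM), and replicate 1 was the lowest for *Tnfrsf25* (2.12 CPM). Chance alone marks about 1 in 20 groups in this way, and whether these 3 exceed that was not tested.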

How the results depend on the processing

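Of 168 named genes, 128 were called against AL NK cells in every alternative other than the fold limit. The naming rule favoured called genes with large changes, so this share does not stand for all calls. Of all 2476 calls, 62.3% were kept without AL NK replicate 1 and 66.6% without AL NK replicate 2. A limit of log2 fold change over 1 left 1319 genes called against AL NK cells (738 higher, 581 lower), 391 against AL 7R- ILC1s (249 and 142) and 331 in the interaction (141 more positive). Leaving out 1 library at a time gave 1644 to 2258 genes against AL NK cells (874 to 1217 higher, 770 to 1041 lower), 607 to 841 against AL 7R- ILC1s (359 to 463 higher, 248 to 387 lower) and 355 to 509 in the interaction (166 to 250 and 189 to 269). DESeq2 called 2662 genes against AL NK cells, and the fit on these groups alone 2079. The direction turned for 4 genes that were not called: *Gzmb*, which was at 0.0032 without AL NK replicate 2 and at -0.48 without AL NK replicate 1, *Kit*, at -0.25 and 1.42, *Klrk1*, at -0.11 and 0.016, and *Klra5*, at -0.12 without AL 7R+ ILC1 replicate 1, -0.07 without AL NK replicate 2 and 0.57 without AL 7R+ ILC1 replicate 3. The cause was not tested.

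Whether same-numbered libraries were paired by mouse or by sort is not stated. The correlations of their deviations from the group means were 0.00106 and 0.0241 between AL 7R+ ILC1s and AL NK cells. With so few AL NK libraries these deviations are mirror images of each other in that group, so the correlations cannot decide whether the libraries were paired. With the replicate block 2231 genes were called against AL NK cells (1178 higher, 1053 lower), 751 against AL 7R- ILC1s and 465 in the interaction. Thinning every library to the same depth left 2377 genes called against AL NK cells.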
